A study of Mus musculus with 4 samples.

Results

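The Six-family, Eya and Dach genes encode a set of interacting nuclear proteins known as part of the retinal determination network. Six-family proteins are homeodomain transcription factors that bind DNA, Eya proteins are co-activators without a DNA-binding domain that also carry a tyrosine phosphatase activity, and Dach proteins are relatives of the SKI and SNO co-repressors. In flies the founding members sine oculis, eyes absent and dachshund are needed to form the eye, and in vertebrates the families act in the eye, ear, kidney, muscle and cranial placodes. The genes described here are 9 rows of the 55426 in the deposited table, found by their symbols, and the set was picked with earlier results of these data known: Six2, Six4 and Six5 (Six-family genes outside the eye-field pair Six3 and Six6), Eya1, Eya2, Eya3 and Eya4, and Dach1 and Dach2.

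RNA came from mouse retinal organoids at day 6, which are aggregates of pluripotent cells grown towards retinal progenitors, and was sequenced after poly(A) selection. All libraries shared one genotype, a Mettl3 KO line with an Rx:GFP reporter and a Dox-inducible HA-METTL3, and one medium with 5% KSR and 0.1 µM AGN. METTL3 is the enzyme that writes N6-methyladenosine (m6A) on RNA, and doxycycline (Dox) is the inducer. The groups were 2 untreated libraries and 2 libraries given Dox at 2 µg/ml for 6 days. The titles read EV and EV+Dox, and EV is not explained. The protocol says that duplicates went through separate rounds of library preparation and sequencing, while the batch label is the same for all 4, and no label says that they came from separate cultures. All come from 1 cell line, so p-values here measure the spread between these samples, which may be technical.

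Before the results, the labels were checked against the table. Mettl3 was listed at 40.33 and 37.98 FPKM (fragments per kilobase of transcript, scaled to sequencing depth) without Dox and at 45.2 and 46.37 FPKM with it, which did not pass the test (limma adjusted p = 0.122). The gene row does not separate the inducible copy from the knocked-out locus, so it is a weak check of the labels. Reporter eGFP was listed at 0.26 and 0.42 FPKM untreated and at 333.52 and 361.13 FPKM with Dox. Of 9 eye-field genes, 7 were called higher and 1 lower with Dox (88.9% called, against 9.31% of all tested genes). Rax, the eye-field gene also called Rx, stood at 1.12 and 0.82 FPKM untreated and at 201.14 and 227.98 FPKM with Dox. Otx2 was the one called lower (log2 fold change -0.36, limma adjusted p = 0.0254). That call was lost in each fit without 1 library (log2 fold changes -0.39 to -0.33). Rax was thus low in the untreated libraries, which go against the retinal label on this marker, while Pax6 was at 127.76 and 118.86 FPKM there.

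A stretch of sequence shared by the 4 Eya genes is shown first, since Eya4 was the one gene of the network called and the sequence lets it be compared with its paralogs. GGACT, written GGACU in RNA, is one form of the sequence in which METTL3 methylates adenosine, and it was searched on the transcript strand of the longest coding transcript of each gene in GENCODE M21. All 4 Eya transcripts held it 492 bases before the last coding base, inside the coding region that ends in the conserved Eya domain. The 45 bases around that place are given 5′ to 3′ as DNA letters, with GGACT in capitals.
Eya1: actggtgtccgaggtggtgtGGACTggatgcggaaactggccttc
Eya2: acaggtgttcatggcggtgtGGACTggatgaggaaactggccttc
Eya3: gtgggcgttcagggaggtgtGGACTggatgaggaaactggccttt
Eya4: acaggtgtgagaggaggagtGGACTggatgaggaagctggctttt
Of these 45 bases, Eya2 shared 39 with Eya1, Eya4 shared 36 and Eya3 shared 35. The match is a description of the letters, and whether it is methylated was not measured.

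The whole transcripts differed more. Eya2 held 7 GGACT in 2460 bases, or 2.85 per kilobase, and 97.3% of the 11629 tested genes with a coding transcript had fewer per kilobase. Eya4 held 7 in 5304 bases (1.32 per kilobase), Eya1 had 6 in 4366 (1.37) and Eya3 had 9 in 5186 (1.74). Among the others, Six5 had 2 per kilobase and Six4 0.44, the highest and lowest of the Six-family and Dach genes. The median over the 11629 genes was 1.05 per kilobase, and 92.3% of them held at least one GGACT.

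The 9 genes lay on 9 different chromosomes (mm10, positions from GENCODE M21), and exons of other annotated genes overlapped those of none of them. Eya4 spans chr10:23102963-23350786 on the minus strand, Eya2 chr2:165595032-165771727 on the plus strand, Eya1 chr1:14168954-14310235 on the minus strand and Eya3 chr4:132638987-132724765 on the plus strand. Dach1 (chr14:97786853-98169765, minus) and Dach2 (chrX:113297510-113836386, plus) are the longest, at 383 and 539 kb. The Six-family genes are short, with Six2 at chr17:85684277-85688274 (minus), Six4 at chr12:73099609-73113456 (minus) and Six5 at chr7:19094594-19098549 (plus), spanning 4, 13.8 and 3.96 kb.

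Eya4 fell with Dox, and no other gene of the network passed the test. The ratio of its means, Dox over untreated, was 0.268, and it was the only one of the 8 tested genes with an adjusted p below 0.05. Eya2 stood higher and Eya1 lower in both Dox libraries without passing. Eya3, Dach1 and Six5, the genes with the highest levels, had overlapping libraries. Six2 was close to the limit of detection and was not tested.

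The counts are read against the whole table. Testing was limited to the 13931 genes that averaged 1 FPKM or more over the libraries, and 9.31% of them were called in limma (adjusted p below 0.05 on log2(FPKM + 1), all 4 libraries), 4.44% higher and 4.87% lower with Dox. Of the 8 tested network genes 1 was called, or 12.5%, a share near that background. At an unadjusted p below 0.05 there were 4 of 8, Eya1, Eya2, Eya4 and Dach2 (50%, against 23.9% of all tested genes). For 5 of the 8, both libraries of one group lay above both of the other (62.5%, against 53.4%). The median log2 fold change of the 8 was -0.0048, against -0.0042 over all tested genes, while the median of its absolute size was 0.28 against 0.13. With 2 libraries against 2 a two-sided exact permutation test of a single gene cannot go below p = 0.333. Leaving out any one library left 593 to 697 genes called in place of 1297.

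**Figure D1:**
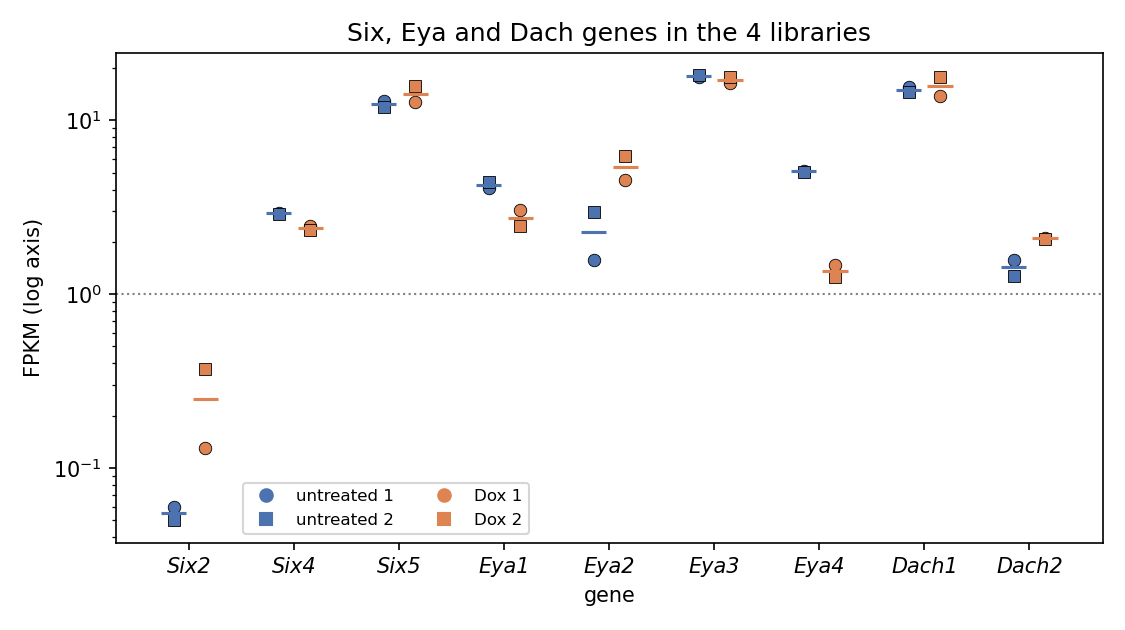
FPKM of each gene (log axis) in the 2 untreated (blue) and 2 Dox (orange) libraries, circles for replicate 1 and squares for replicate 2, with short lines at the group means and a dotted line at 1 FPKM, the minimum mean for testing. Eya4 drops from 5.14 and 5.05 to 1.48 and 1.25 FPKM, Eya2 is higher in both Dox libraries, and Six2 lies below 0.4 FPKM throughout.

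Eya4 encodes a co-activator known for its role in the inner ear and heart. It was listed at 5.14 and 5.05 FPKM in untreated replicates 1 and 2, and at 1.48 and 1.25 FPKM in Dox replicates 1 and 2. Both Dox libraries lay below both untreated libraries, and the gap was many times the spread within a group. The means were 5.09 ± 0.0636 and 1.36 ± 0.163 FPKM (SD, n = 2 each), a ratio of 3.73 untreated over Dox. On the log2(FPKM + 1) scale the difference was -1.37 (SE 0.118, 95% interval -1.66 to -1.07, limma adjusted p = 0.00201). Of all tested genes 1.31% had a lower log2 fold change. The call held in all 13 alternative fits that tested Eya4 (limma adjusted p 6.83e-04 to 0.0348), among them each fit without one library (0.0165 to 0.0242). The size depends on the pseudocount by construction, with -1.83 at a pseudocount of 0.1 and -0.67 at 5. At the fitted depth the values stand for about 836 and 890 fragments untreated and 239 and 208 with Dox.

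Eya2 encodes a co-activator found in cranial placodes and muscle precursors. It was listed at 1.57 and 2.97 FPKM untreated and at 4.53 and 6.25 FPKM with Dox. Both Dox libraries were above both untreated ones, but on the log2(FPKM + 1) scale the untreated libraries differed from each other by more than the nearest libraries of the 2 groups did. The means were 2.27 ± 0.99 and 5.39 ± 1.22 FPKM (SD, n = 2 each), and the log2 fold change was 0.99 (SE 0.246, 95% interval 0.37 to 1.60, limma adjusted p = 0.0734). It passed the threshold after rescaling to TPM (adjusted p = 0.0448), with the replicate number as a block (adjusted p = 0.00787) and without untreated replicate 2 (log2 fold change 1.30, adjusted p = 0.0431). It did not pass without any other single library (log2 fold changes 0.67 to 1.18, adjusted p 0.154 to 0.293).

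Eya1, the gene altered in branchio-oto-renal syndrome, was listed at 4.07 and 4.43 FPKM untreated and at 3.06 and 2.46 FPKM with Dox. Both Dox libraries were lower. The log2 fold change was -0.49 (95% interval -0.81 to -0.16, limma adjusted p = 0.0882), and the adjusted p ranged from 0.0676 to 0.327 over the other fits.

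Eya3, another co-activator of the family, was listed at 17.74 and 18.17 FPKM untreated and at 16.47 and 17.85 FPKM with Dox. The groups overlapped, with a log2 fold change of -0.06 (95% interval -0.26 to 0.14, limma adjusted p = 0.692). It was the highest of the 9 genes in both groups.

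**Figure D2:**
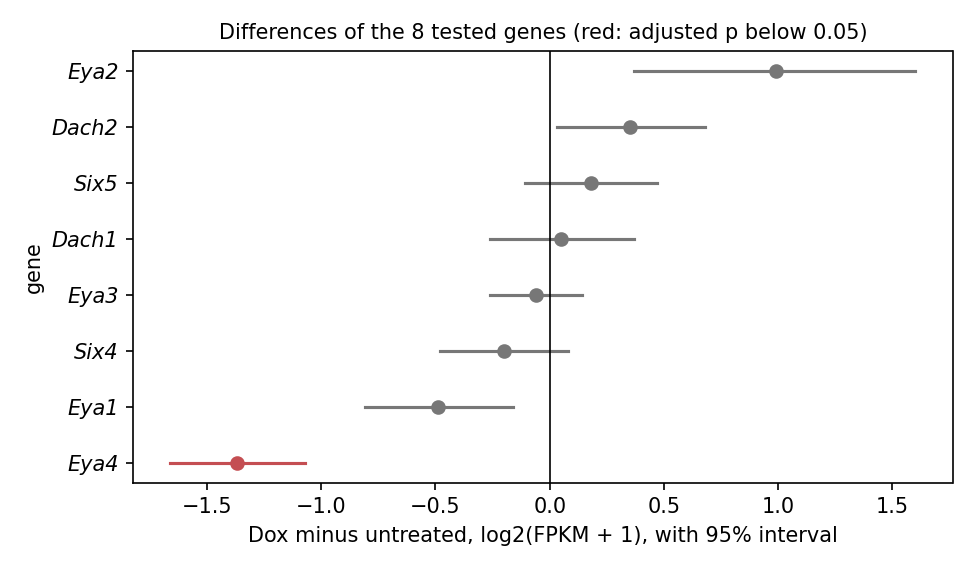
Difference between Dox and untreated on the log2(FPKM + 1) scale for the 8 tested genes (points) with limma's 95% interval (lines), red where the adjusted p was below 0.05. Eya4 at -1.37 is the only red gene, and the intervals of Eya1, Eya2 and Dach2 also leave out 0 before adjustment.

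Seen as a family, the Eya genes differed between the groups in make-up while their sums lay close together. Their summed level was 28.5 and 30.6 FPKM untreated and 25.5 and 27.8 FPKM with Dox, or 29.6 ± 1.48 and 26.7 ± 1.61 FPKM (SD, n = 2 each). Both Dox libraries were lower, but the gap between the nearest libraries was smaller than the SD of either group. Eya3 made up 62.2% and 59.3% of that sum untreated and 64.5% and 64.2% with Dox. Eya4 made up 18% and 16.5% untreated and 5.79% and 4.49% with Dox, while Eya2 made up 5.5% and 9.7% untreated and 17.7% and 22.5% with Dox. The share of Eya1 was 14.3% and 14.5% untreated and 12% and 8.85% with Dox.

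The order of Eya2 and Eya4 was thus the opposite in the 2 groups. The ratio of Eya2 to Eya4 was 0.305 and 0.588 in the untreated libraries and 3.06 and 5 in the Dox libraries. FPKM is scaled to length, so such levels can be compared between genes as far as the lengths used were right. Those lengths are not given, and the Eya genes have 6 to 13 transcripts each in GENCODE M21. These sums, shares and ratios are descriptions, since no permutation of 4 libraries can pass the threshold.

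**Figure D3:**
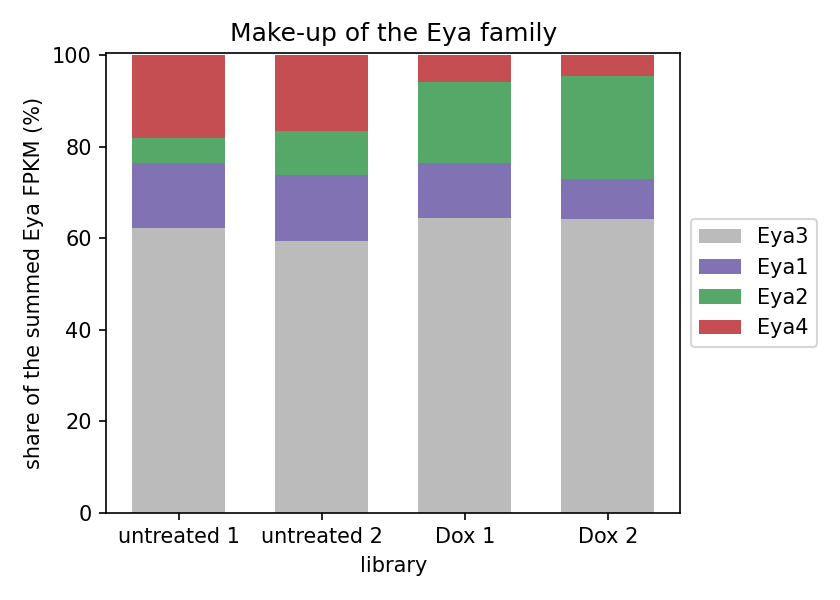
Share of each Eya gene (percent) in the summed Eya FPKM of each library. Eya3 holds 59.3% to 64.5% in every library, and the red part, Eya4, gives way to the green part, Eya2, in the Dox libraries.

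Dach1, a co-repressor gene of the developing eye, limb and brain, was listed at 15.5 and 14.58 FPKM untreated and at 13.84 and 17.65 FPKM with Dox. The untreated libraries lay between the Dox libraries. The log2 fold change was 0.05 (95% interval -0.26 to 0.37, limma adjusted p = 0.845) and turned to -0.11 without Dox replicate 2. Its paralog Dach2 was listed at 1.57 and 1.28 FPKM untreated and at 2.11 and 2.08 FPKM with Dox. Both Dox libraries were above the untreated ones, with a log2 fold change of 0.35 (95% interval 0.03 to 0.68, limma adjusted p = 0.181). Dach1 made up 86.8% to 91.9% of the summed Dach level in each of the 4 libraries. That sum was 17.1 and 15.9 FPKM untreated and 15.9 and 19.7 FPKM with Dox, and overlapped.

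Among the Six-family genes the level was carried by Six5, known as the neighbour of the myotonic dystrophy gene Dmpk. Six5 was listed at 12.93 and 11.93 FPKM untreated and at 12.82 and 15.71 FPKM with Dox. The groups overlapped, and Dox replicate 2 stood above the other 3 libraries (log2 fold change 0.18, 95% interval -0.11 to 0.47, limma adjusted p = 0.426). Six5 gave 80.1% to 85.2% of the summed level of the 3 Six-family genes, which was 15.9 and 14.9 FPKM untreated and 15.4 and 18.4 FPKM with Dox.

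Six4, which overlaps in function with other genes of its family in muscle and kidney, was listed at 2.93 and 2.91 FPKM untreated and at 2.46 and 2.35 FPKM with Dox. Both Dox libraries were lower, but the difference did not pass (log2 fold change -0.20, 95% interval -0.48 to 0.08, limma adjusted p = 0.348). Six2, known for keeping nephron progenitors of the kidney undifferentiated, was listed at 0.06 and 0.05 FPKM untreated and at 0.13 and 0.37 FPKM with Dox. At the fitted depth this is about 4 and 3 fragments untreated and 8 and 23 with Dox, so its higher Dox values rest on few fragments and mostly on one library. Without the filter on low values its difference had an adjusted p of 0.394 in limma.

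Six4 was also the one gene, of the 7 searched, with a match to a Six-family site near an annotated start. Eya1 and Eya2 had no promoter window and were not searched. The 250 bases before each annotated start in RefSeq (GRCm38.p6) were searched on both strands for TCAGGTTTC, the MEF3 site bound by Six-family proteins, in 10 windows that covered 7 of the 9 genes, some of them overlapping. Only the window at chr12:73113246-73113495, for Six4, held it, against 0.387% of all 32851 promoter windows. The other Six4 window (chr12:73113426-73113675) did not. The match is shown with 10 bases on each side, on the gene's strand. Capitals mark the match, which reads as the complement of the searched strand.
Six4, chr12:73113326-73113354, minus strand: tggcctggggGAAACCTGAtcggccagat
The match ended 91 bases before the RefSeq start of the window that held it and lay inside an exon of a Six4 transcript in GENCODE M21. Of 3 other patterns searched on both strands, CANNTG was found in 3 of the 10 windows (66.2% of all windows), and TAATTA (4.84%) and ACAATG (10.7%) in 0. No match says only that these letters are not in these windows.

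The order of levels shifted mainly through Eya4 and Eya2. Without Dox the order was Eya3, Dach1, Six5, Eya4, Eya1, Six4, Eya2, Dach2 and Six2, and only Eya2 overlapped with its neighbours Six4 and Dach2. With Dox it was Eya3, Dach1, Six5, Eya2, Eya1, Six4, Dach2, Eya4 and Six2. There Eya3, Dach1 and Six5 overlapped as neighbours, as did Eya1 and Six4. Eya4 moved from position 4 to 8 and Eya2 from position 7 to 4. In the eye-field pair, both genes rose. Six3 was at 7.7 and 7.05 FPKM untreated and at 83.02 and 108.75 FPKM with Dox, and Six6 at 0.01 and 0.01 FPKM untreated and at 79.22 and 92.44 FPKM with Dox.

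The genes whose values were nearest to those of Eya4 over the 4 libraries, by Euclidean distance in log2(FPKM + 1), were Ppp2r2b (distance 0.165), Wnt9a (0.169) and Mgll (0.243). Wnt9a, a Wnt ligand gene, was listed at 4.97 and 4.65 FPKM untreated and at 1.38 and 1.44 FPKM with Dox. Likeness over 4 libraries is a description of level and difference only.

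Of the genes that work with the network, most tested ones were not called, but the share called was above that of all tested genes. The cofactor list holds 20 genes in the table, 17 of them tested, with partners of Six-family proteins (Sobp, Mcrs1, Pa2g4, the Zmym and Tle genes) and co-repressors that bind Dach or are related to it (Ncor, Hdac, Sin3a, Ski, Skil). In limma 1 was called higher and 2 lower (17.6% called, against 9.31% of all tested genes), with a median log2 fold change of 0.01. At an unadjusted p below 0.05 there were 2 higher and 3 lower, where 23.9% of all tested genes passed. Sobp, whose fly counterpart binds sine oculis, was listed at 3.59 and 2.96 FPKM untreated and at 0.81 and 1.26 FPKM with Dox (log2 fold change -1.08, adjusted p = 0.0157). Tle1, a Groucho co-repressor gene, fell from 47.3 ± 0.212 to 33.2 ± 2.43 FPKM (SD, n = 2 each, log2 fold change -0.50, limma adjusted p = 0.0152). Skil, the SNO gene of the family that includes Dach, rose from 3.75 ± 0.163 to 8.08 ± 0.665 FPKM (log2 fold change 0.93, limma adjusted p = 0.00553). The other 14 tested genes had log2 fold changes of -0.33 to 0.21 and were not called. Calls were lost for Sobp without untreated replicate 1 (adjusted p = 0.0779) or Dox replicate 1 (0.0796), for Tle1 without untreated replicate 1 (0.11), untreated replicate 2 (0.106) or Dox replicate 1 (0.0746), and for Skil without Dox replicate 2 (0.0557), all in limma fits with 3 libraries.

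Among genes reported elsewhere as targets of Six-family and Eya proteins, several rose with Dox. The list has 10 genes, of which 7 were tested, and 4 were called higher and 0 lower (57.1% called, against 9.31% of all tested genes). Their median log2 fold change, over the 7 tested, was 0.35. At an unadjusted p below 0.05 there were 5 higher and 0 lower, where 23.9% of all tested genes passed. Myc was listed at 2.86 and 2.77 FPKM untreated and at 14.45 and 18.35 FPKM with Dox (log2 fold change 2.18, limma adjusted p = 6.34e-04). Sall1, a zinc finger gene of kidney and eye, was listed at 18.41 and 16.39 FPKM untreated and at 34.75 and 43.01 FPKM with Dox (log2 fold change 1.11, limma adjusted p = 0.00473). The other 2 called genes, named after their values were seen, were Igfbp5 (1.00) and Ezr (0.35). These genes have many other regulators, and the part of the network in their levels was not tested. Gdnf, below the filter, was at 0.41 and 0.38 FPKM untreated and at 0.03 and 0 FPKM with Dox.

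**Figure D4:**
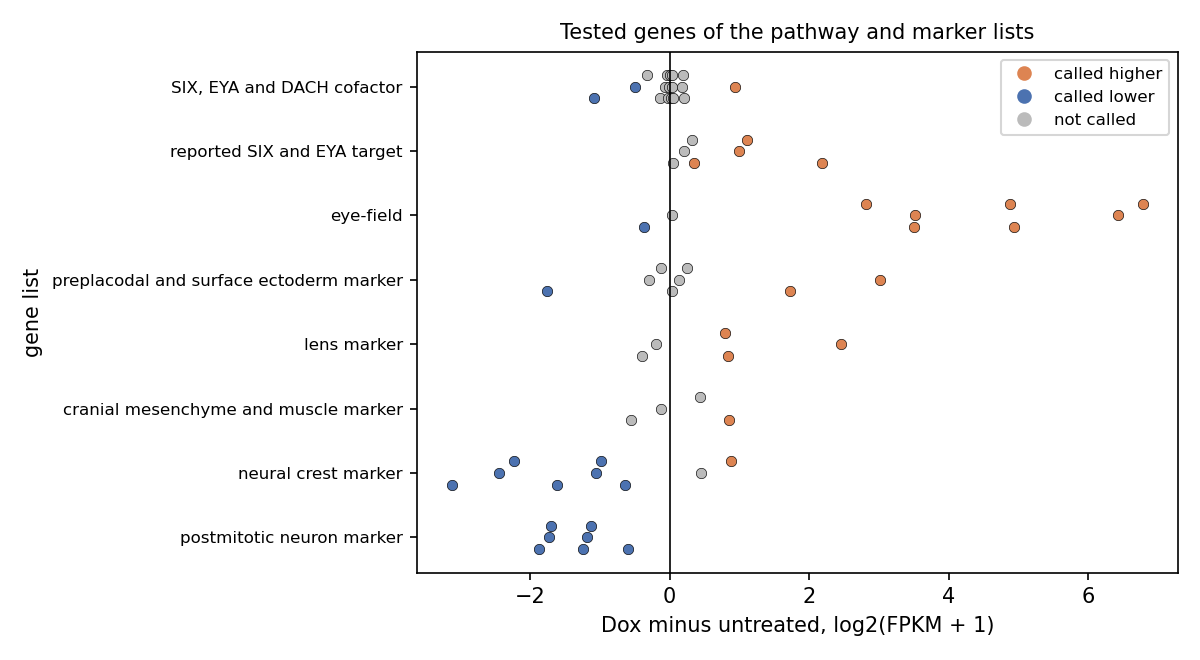
Difference between Dox and untreated on the log2(FPKM + 1) scale for every tested gene of the 8 pathway and marker lists, one point per gene, orange where called higher, blue where called lower and grey where not called. Most cofactor genes lie near 0, 7 of 9 neural crest genes and all 7 tested neuron genes are blue, and 7 of 9 eye-field genes are orange.

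Markers of other cell types that use these genes moved with Dox as well. In a bulk sample, fewer cells of a type and less RNA per cell cannot be told apart. The neural crest list had 9 of its 10 genes tested, 7 called lower and 1 higher (88.9% called, against 9.31% of all tested genes). At an unadjusted p below 0.05 there were 7 lower and 2 higher, where 23.9% of all tested genes passed. The list's summed level was 48.5 to 50.1 FPKM untreated and 21 to 21.8 FPKM with Dox. Sox10, its defining transcription factor gene, was listed at 12.79 and 13.35 FPKM untreated and at 0.82 and 0.43 FPKM with Dox, and Tfap2b fell by 2.45 on the log2 scale (limma adjusted p = 4.15e-04). No gene of the list was at 0 in all libraries. Sox9, also a retinal progenitor gene, was the one called higher (0.88, adjusted p = 0.015), a call lost in limma without untreated replicate 1 (0.0643), untreated replicate 2 (0.0953) or Dox replicate 2 (0.085). The postmitotic neuron list had 7 of its 10 genes tested, all 7 called lower and 0 higher (100% called, against 9.31% of all tested genes). The counts were the same at an unadjusted p below 0.05, where 23.9% of all tested genes passed. Stmn2 (-1.87) and Elavl4 (-1.73) fell most, and the summed level was 159 to 162 FPKM untreated and 87 to 91 FPKM with Dox. These falls run beside that of Eya4, and their part in it was not tested.

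On the side of the higher genes, the preplacodal and surface ectoderm list had 8 of 14 genes tested, 2 called higher and 1 lower. That is 37.5% called, against 9.31% of all tested genes. At an unadjusted p below 0.05 there were 2 higher and 2 lower, where 23.9% of all tested genes passed. Foxi3, a placode gene and one of those called higher, was listed at 0.13 and 0 FPKM untreated and at 2.34 and 2.67 FPKM with Dox. Tfap2c, a surface ectoderm transcription factor gene, was the one called lower (log2 fold change -1.76, limma adjusted p = 7.21e-04). The summed level was 66.7 to 72.1 FPKM untreated and 76.5 to 84.7 FPKM with Dox, and Foxi2 was at most 0.03 FPKM. The lens list had 5 of 10 genes tested, 3 called higher and 0 lower (60% called, against 9.31% of all tested genes). At an unadjusted p below 0.05 there were also 3 and 0, where 23.9% of all tested genes passed. The other 2 tested genes, Cryab and Foxe3, were lower in both Dox libraries and not called (log2 fold changes -0.39 and -0.19, limma adjusted p = 0.223 and 0.387). The list's summed level was 23.5 to 24.9 FPKM untreated and 42.5 to 44.2 FPKM with Dox. Most of that difference came from Maf (3.34 and 3.21 against 20.15 and 25.15 FPKM). The lens crystallin gene Cryaa was listed at 0 in 3 libraries and at 0.06 FPKM in Dox replicate 2. Prox1 was higher (0.83, adjusted p = 0.0122), a call lost in limma without any one library (0.0582 to 0.0856).

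The cranial mesenchyme and muscle list had 4 of 12 genes tested, 1 called higher and 0 lower (25% called, against 9.31% of all tested genes). At an unadjusted p below 0.05 there were 2 higher and 1 lower, where 23.9% of all tested genes passed. The summed level was 10.2 to 11.7 FPKM untreated and 9.93 to 11.4 FPKM with Dox. Pdgfra was the called gene (0.85, limma adjusted p = 0.0141), and the call was lost without untreated replicate 1 (0.0688), Dox replicate 1 (0.0823) or Dox replicate 2 (0.0835). The muscle genes Myf5 and Myod1 were at most 0.06 FPKM. The part of these cell types in the higher values of Eya2 was not tested.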

How the data were processed

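The authors deposited FPKM values, 1 column per library and rounded to 2 decimals; STAR, Cuffdiff and the build mm10 are named in the submitters' processing notes, and versions, annotation and strand setting are not given in the sources used here. Columns were matched to samples by library name. FPKM is no count, so log2(FPKM + 1) was fitted with limma 3.58.1 in R 4.3.3 (lmFit, eBayes with trend, prior of 3.5 degrees of freedom) on the 13931 genes averaging 1 FPKM or more, two-sided, with Benjamini-Hochberg adjustment over all of them. In simulated libraries of 13929 genes with 200 changed, this recovered 82% of 2-fold and 98% of 4-fold changes in FPKM + 1. Of the calls there 4.76% were false. At low levels the same fold in FPKM is a smaller change on that scale, and its recovery was not simulated. The data had 1297 genes called, more than were changed in the simulation.

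Depth was fitted from the steps of low values of single-transcript genes of 450 to 1200 nt (Python 3.11.15): 31900000 to 34800000 fragments per library, with 89.3% to 90.5% of those values within 0.2 of a whole fragment (40% by chance). Fragments given for a gene assume its longest coding transcript. FPKM summed to 793308 to 866239 per library. Pearson's r was 0.99 between untreated and 0.987 between Dox replicates, and 0.96 to 0.966 between groups, across genes, which are not replicates. All labels give one batch.

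The members and the 8 lists were chosen with earlier results of these data known. Named are all members, Mettl3, eGFP, Six3, Six6, Pax6, up to 2 called genes per list and direction, and the 3 nearest neighbours of Eya4. Some genes that this rule names are not reported here. Other genes are marked where named, or show a marker's absence. Alternatives were other pseudocounts, filters, scalings and variance models, the replicate number as a block, and each library left out in turn.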

Additional observations from a re-analysis of the deposited data

How the results depend on the processing

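Eya4 was called lower in every fit that tested it; with a minimum mean of 5 FPKM it was not tested and 0 members were called lower. A member was called higher, 1 in each case and always Eya2, with rescaling to TPM, with the replicate block and in 1 of the 4 fits without a library (0 to 1). Duplicates went through separate rounds of library preparation, but no label ties a replicate number to a round, and deviations of same-numbered libraries had a correlation of -0.0435, so whether the numbers pair the libraries is not known. The block changed no other member's call. In the fits without 1 library the log2 fold change of Dach1 ranged from -0.112 (without Dox replicate 2) to 0.218, and that of Pax6 from -0.0121 (without untreated replicate 2; -0.00501 without Dox replicate 2) to 0.0912. Neither gene passed the threshold in any of these fits, and the cause was not tested.

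Without a filter, where 27532 genes are tested, 336 genes were called higher and 409 lower. The counts became 0 lower in the cofactor list, 2 higher and 1 lower in the target list, 0 lower in the eye-field list, 4 higher in the preplacodal list, 1 higher in the lens list, 0 higher and 1 lower in the mesenchyme list and 0 higher in the neural crest list. With at least 5 FPKM, where fewer genes are tested, 408 genes were called higher and 413 lower, with 1 lower in the cofactor list, 1 higher in the preplacodal list, 1 higher in the lens list, 0 higher in the mesenchyme list, 2 lower in the neural crest list and 3 lower in the neuron list. Without the trend there were 0 lower in the eye-field list and 2 higher in the neural crest list, and with the replicate block 0 lower in the eye-field list.

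The fits without 1 library have 3 libraries, and the lone sample of a group is assumed to vary like the others. They gave 262 to 320 genes higher and 331 to 377 lower, 0 to 1 higher and 0 to 2 lower in the cofactor list, 0 lower in the eye-field list, 1 higher in the lens list, and 0 to 1 higher in the mesenchyme and in the neural crest list. Without 1 library, the Dox minus untreated difference in summed FPKM ranged from 0.005 to 3.02 for the Six-family genes (1.52 with all 4), from -4.03 to -1.76 for Eya (-2.89) and from -0.515 to 3.26 for Dach (1.37), where the sign turned without Dox replicate 2. Depth limits Six2 most, with 3 to 23 fragments per library.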
